A study of Mus musculus with 10 samples.

Results

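Open chromatin listed in neural stem cells (NSC) and in none of 3 other mouse cell types is described here. Sites of 4 FAIRE-seq lists on the autosomes were merged into regions wherever they shared at least 1 bp, and a region was called NSC-only when it held NSC sites and no site of another list. Regions with a midpoint on distal chromosome 14, chr14:86000001-121000000 on mouse build mm9, were left out. This gave 249648 NSC-only regions of 1121520 autosomal regions in all. Outside the left-out segment they were 22.7% of 1101277 regions, and 49.3% of the 506723 regions that held an NSC site (exact 95% interval 49.1 to 49.4, which covers counting error only). Regions were thus chosen by the presence or absence of called sites in the 4 lists, so these shares follow from the rule itself and are given as a description.

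FAIRE-seq sequences the DNA that stays in the aqueous phase when crosslinked, sheared chromatin is extracted with phenol and chloroform. That DNA is poor in nucleosomes, and it comes from promoters, enhancers and other regulatory elements at which factors have displaced nucleosomes. Promoters of widely used genes tend to be open in many cell types, whereas enhancers far from promoters are more often open in a single lineage. NSC divide in culture under FGF2 and EGF and can give rise to neurons and glia, and transcription factors of the SOX, PAX and NFI families act at their enhancers. A region open in 1 cell type is therefore commonly looked on as a candidate for a lineage enhancer, although FAIRE alone does not show which factor binds there or which gene is regulated.

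The NSC were ES-derived neural progenitor cells, cultured in N2B27 medium to which FGF-2 and EGF were added at 10 ng/ml each. The 3 cell types they were set against were mouse embryo fibroblasts (MEF) from E16.5 embryos in DMEM with 10% FBS, epiblast stem cells (EpiSC) of the E3 line, and E14 embryonic stem cells (ESC). The EpiSC were expanded on mitomycin C-treated MEF feeders with FGF2 at 5 ng/ml in MEF-conditioned medium and then kept off feeders on fibronectin before crosslinking. The ESC were grown on gelatin in N2/B27 medium with LIF, the MEK inhibitor PD032590 at 1 uM and the GSK3 inhibitor CH99021 at 3 uM. Each group has 2 samples and sheared genomic DNA served as a control, but 1 list per cell type was analysed here, so no difference between cell types has a replicate check and none was tested. The lists held 555868 sites in NSC, 431911 in MEF, 387312 in EpiSC and 441855 in ESC. Read depth is unknown. A region missing from a list may be closed in that cell type or may have missed the threshold of that list. The source name of the MEF samples speaks of NSC chromatin while their title and cell type say fibroblasts. The list is called MEF here, and without it the regions that met the rule numbered 329258.

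Each NSC-only region held exactly 1 NSC site, since sites of a single list did not overlap each other. Its score, computed by the authors in a unit that is not given, is therefore the region's own score. Together these regions covered 82.1 Mb. In the full lists, NSC-only regions formed the most numerous of the 15 possible combinations of lists. The NSC list is also the longest, so this rank and the shares below depend in part on list length. With lists of equal length NSC-only regions numbered 178591, and the other combinations were not counted in that setting. MEF-only regions numbered 180733, ESC-only regions 174377 and EpiSC-only regions 118271. Of the regions with a site of each list, those of that list alone were 49.3% for NSC, against 45.7% for MEF, 43.2% for ESC and 33.1% for EpiSC. The combinations nearest to the NSC-only regions were much smaller, with 69524 regions in NSC and MEF, 35871 in NSC and EpiSC, and 33509 in NSC and ESC. Regions open in all 4 lists numbered 45568.

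NSC-only sites were narrow. Their median width was 284 bp, with quartiles of 201 and 398 bp and a range from 14 to 4217 bp, and 6177 of them were under 100 bp wide. NSC sites that overlapped another list had a median of 395 bp, which went from 348 bp with 1 other list to 408 bp with 2 and 584 bp with all 3. Of the NSC sites 2 kb or wider, 171 were NSC-only and 6629 were shared. A wider site has more bases with which to meet a site of another list, so width and the rule are not independent. Single-list regions of the other cell types were of similar width in MEF, with a median of 282 bp, and in EpiSC, with 275 bp, and wider in ESC, with 329 bp.

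The scores of NSC-only sites were close to those of shared NSC sites when widths were ignored. The median was 3.88 (quartiles 2.38 and 5.94) for NSC-only sites, against 3.89 (2.22 and 6.44) for shared sites. Sites shared with MEF alone had a median of 4.54, those shared with EpiSC alone 3.61, those shared with ESC alone 2.74 and those shared with all 3 lists 4.65. NSC-only sites thus scored above the sites NSC shared with ESC alone and below those it shared with MEF alone. The share of NSC sites that were NSC-only, 46.8% over all scores, was highest at middle scores. It was 35.7% at scores up to 1.5, 52.7% between 2.5 and 3, 50.3% between 5 and 6, and 41.8% between 10 and 15. Among the 1000 NSC sites with the highest scores, 421 were NSC-only (42.1%, exact 95% interval 39.0 to 45.2), 259 were shared with MEF alone and 130 were open in all 4 lists. Among the 100 highest, 35 were NSC-only, 27 were shared with MEF alone and 18 were open in all lists.

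At equal width the order of the scores depended on the width. Among sites 151 to 200 bp wide the median score was 4.12 for NSC-only sites and 3.42 for shared sites. Among sites 251 to 300 bp wide it was 3.62 for NSC-only sites and 3.12 for shared sites. The medians met at 601 to 800 bp, with 4.44 for NSC-only sites and 4.43 for shared sites. Above that the order turned round, with 5.18 for NSC-only sites and 5.47 for shared sites at 801 to 1000 bp. Narrow NSC sites were accordingly more often NSC-only the higher they scored. At 151 to 200 bp the share went from 48.2% at scores up to 2 to 72.0% at scores above 8 (exact 95% interval 70.9 to 73.1). At 601 to 800 bp it was 28.4% at scores up to 2 and 28.0% at scores above 8. The narrow, high-scoring NSC site was thus the kind most often missing from the other lists.

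**Figure D1:**
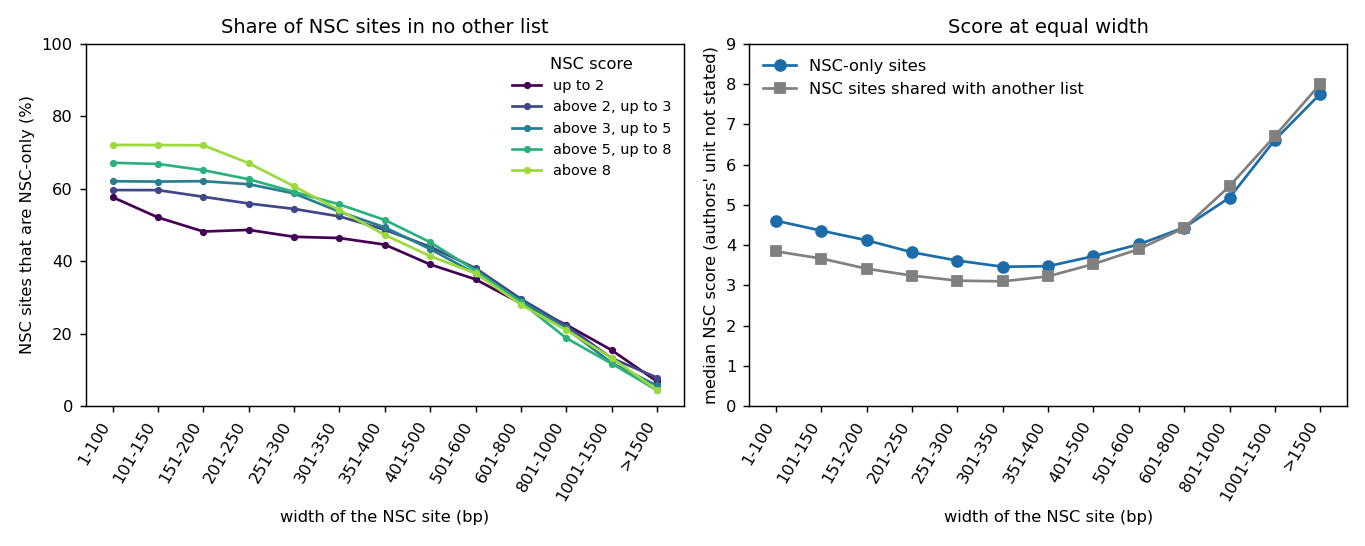
Left, percent of NSC sites that were NSC-only (y axis) by width of the site in bp (x axis), with a line for each class of NSC score. Right, median NSC score (y axis, unit not given) of NSC-only sites (circles) and of shared NSC sites (squares) by width. The share is far lower among wide sites in every score class, the classes fan out among narrow sites, from 48.2% to 72.0% at 151 to 200 bp, and the median scores cross near 601 to 800 bp.

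The 10 NSC-only regions with the highest scores were named by rule. The first was chr15:40538104-40538362, 259 bp wide, with a score of 37.0. The nearest MEF site lay 1933 bp away, the nearest EpiSC site 9685 bp and the nearest ESC site 50128 bp. It was followed by chr5:4503371-4503675 with 34.6, chr15:56953671-56954000 with 34.0, chr12:49384914-49385240 with 33.8 and chr5:82068985-82069394 with 33.2. Next came chr6:102052715-102052951 with 32.4, chr15:44755523-44755753 with 32.3 and chr8:56096891-56097071 with 32.1. The last were chr12:54350690-54350965 with 31.6 and chr8:8257359-8257722 with 31.5. All 10 were between 181 and 410 bp wide, so each lay within the narrow range in which scores of NSC-only sites were above those of shared sites. Of these regions 3 lay on chromosome 15, which held 11491 of the 249648 NSC-only regions. The others lay on chromosomes 5, 6, 8 and 12, and a preference for any chromosome was not tested. The region chr8:56096891-56097071 had no site of another list within 8840 bp and stood in the second longest run of NSC-only regions, described further on. By contrast chr8:8257359-8257722 had a MEF site 153 bp away, an ESC site at 532 bp and an EpiSC site at 541 bp.

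The widest NSC-only regions were of another kind. The widest, chr10:99030518-99034734, spanned 4217 bp with a score of 12.7 and had its nearest site of another list, in EpiSC, 1046 bp away. The next, chr6:53370587-53374489, spanned 3903 bp with a score of 11.3 and lay 56 bp from an EpiSC site. The next in width, chr6:54669895-54673723, spanned 3829 bp with a score of 9.53 and lay 19 bp from an ESC site. The remaining pair were chr18:15562851-15566623 with 3773 bp and chr19:23010446-23014082 with 3637 bp, each under 350 bp from a site of another list. Scores of the 171 NSC-only regions of 2 kb or more had a median of 8.27, and most wide openings of NSC were shared rather than NSC-only.

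In the full lists most NSC-only regions lay close to sites of other lists. The median distance to the nearest site of any other list was 750 bp, with quartiles of 298 and 1724 bp, and 58.9% of the regions lay within 1 kb of one. With the 50% highest scores of each list the median was 1464 bp and 39.2% lay within 1 kb, and without the MEF list the median was 1472 bp and 39.9% did. With sites under 200 bp apart merged, the median was 1020 bp and 49.2% lay within 1 kb. In the full lists, where the median was 750 bp for NSC-only regions, it was 772 bp for MEF-only, 630 bp for ESC-only and 591 bp for EpiSC-only regions. The nearest other site was a MEF site for 51.1% of NSC-only regions, an EpiSC site for 27.2% and an ESC site for 21.7%. The median distance was 1580 bp to MEF, 2449 bp to EpiSC and 3570 bp to ESC. The upper tail separated the lists more: 29.4% of NSC-only regions had no ESC site within 10 kb, 15.7% had no EpiSC site and 5.27% had no MEF site. These distances depend on how many sites each list holds and on how those sites are spaced, and neither dependence was tested. The ESC list, whose sites lay farthest away, is the longest of the 3.

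**Figure D2:**
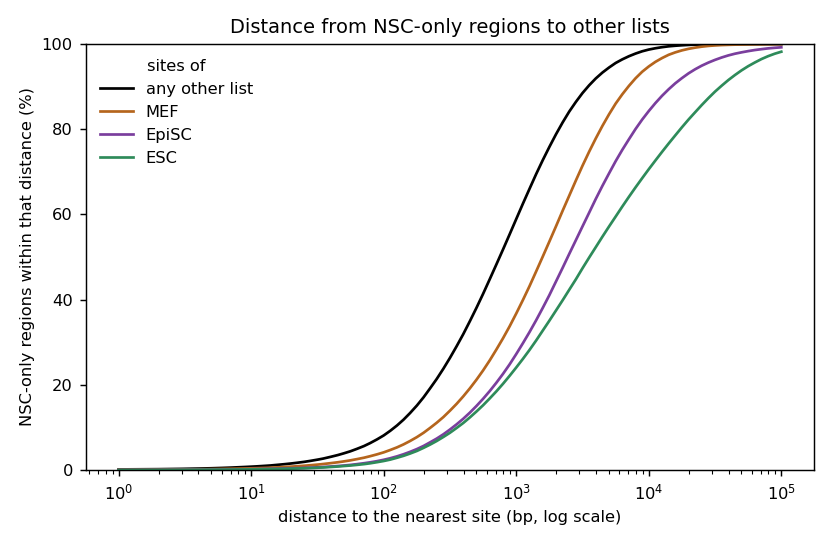
Percent of NSC-only regions (y axis) with a site of another list within a given distance in bp (x axis, log scale), for MEF, EpiSC, ESC and any of the 3. The curve for MEF lies above those for EpiSC and ESC, with 36.8%, 27.2% and 24.1% of the regions within 1 kb.

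Beyond 200 bp, score rose with isolation. NSC-only regions 200 to 500 bp from the nearest other site had a median score of 3.73 and a median width of 287 bp. Those 2 to 5 kb away had a median score of 4.12 and a width of 277 bp. The 3271 regions more than 10 kb away had a median score of 4.58 and a width of 253 bp. The 5 regions farthest from any other list included chr5:11472493-11472546, 54 bp wide with a score of 16.49, whose nearest other site was 334510 bp away. The other 4 lay together on chromosome 4. They were chr4:113370356-113370718, chr4:113405063-113405377, chr4:113409187-113409313 and chr4:113337192-113337438, between 209201 and 242365 bp from any other list, with scores from 3.12 to 8.58. Regions with both a score of at least the NSC median of 3.88 and a distance of at least 1 kb from every other list numbered 53958. They were 21.6% of NSC-only regions. Taken singly, the score cut-off was met by 124665 NSC-only regions and the distance cut-off by 102614. The joint number depends on where both cut-offs were set.

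The rule draws its line at a single shared base, and sites on both sides of that line had similar medians. The 182 NSC-only regions that touched a site of another list without sharing a base had a median width of 297 bp and a median score of 4.12. The 165 NSC sites whose greatest overlap was 1 bp had a median width of 263 bp and a median score of 3.95. Within 10 bp of the line, 2016 NSC-only regions had a median score of 3.72 and 1846 shared NSC sites had a median score of 3.75. Just inside, the highest scores were 23.3 at chr13:35284889-35285283, 21.7 at chr12:15689786-15690160 and 19.4 at chr19:10226481-10226911, each touching a MEF site. Just outside they were 25.04 at chr7:65502179-65503468, 24.7 at chr8:80877582-80877855 and 17.5 at chr8:6572279-6572498.

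NSC-only regions made up different shares of the NSC regions of each chromosome. The share was highest on chromosomes 12, with 56.4% (exact 95% interval 55.8 to 57.0), 18, with 56.0%, and 16, with 55.5%. It was lowest on chromosome 11, with 38.0% (37.5 to 38.6), followed by chromosome 17, with 43.3%, and chromosome 8, with 44.3%. Across the 19 autosomes the share was lower where other cell types had more sites. Its Spearman correlation was -0.87 with the density of ESC sites, -0.84 with that of EpiSC sites and -0.36 with that of MEF sites. The other lists enter the rule, so these values describe how the share was made up and are given without a test. On chromosomes 12 and 18 the EpiSC list was sparse, at 0.64 and 0.65 times the autosomal median density. On chromosome 11 EpiSC sites stood at 1.65 times and ESC sites at 1.499 times their median density, and on chromosome 8 ESC sites stood at 1.47 times.

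The density of NSC-only regions was uneven too. It was 132 per Mb on chromosome 18, 122 on chromosome 16 and 119 on chromosome 12, against a median of 107 over autosomes. It was 91.9 per Mb on chromosome 11 and 84.6 on chromosome 8. Chromosome 14, outside the left-out segment, had the lowest density, with 68.6 per Mb, the lowest density of shared NSC regions, with 77.9 per Mb, and the lowest median score of NSC-only regions, 3.34 against 3.91 at the autosomal median. Its poverty in NSC sites outside the segment therefore held for shared regions as well. MEF sites were also sparsest on this chromosome, at 140 per Mb or 0.82 times the autosomal median. ESC sites stood at 0.93 times their median there, and EpiSC sites at their median. Median widths hardly differed, from 276 bp on chromosomes 5 and 17 to 292 bp on chromosome 7.

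**Figure D3:**
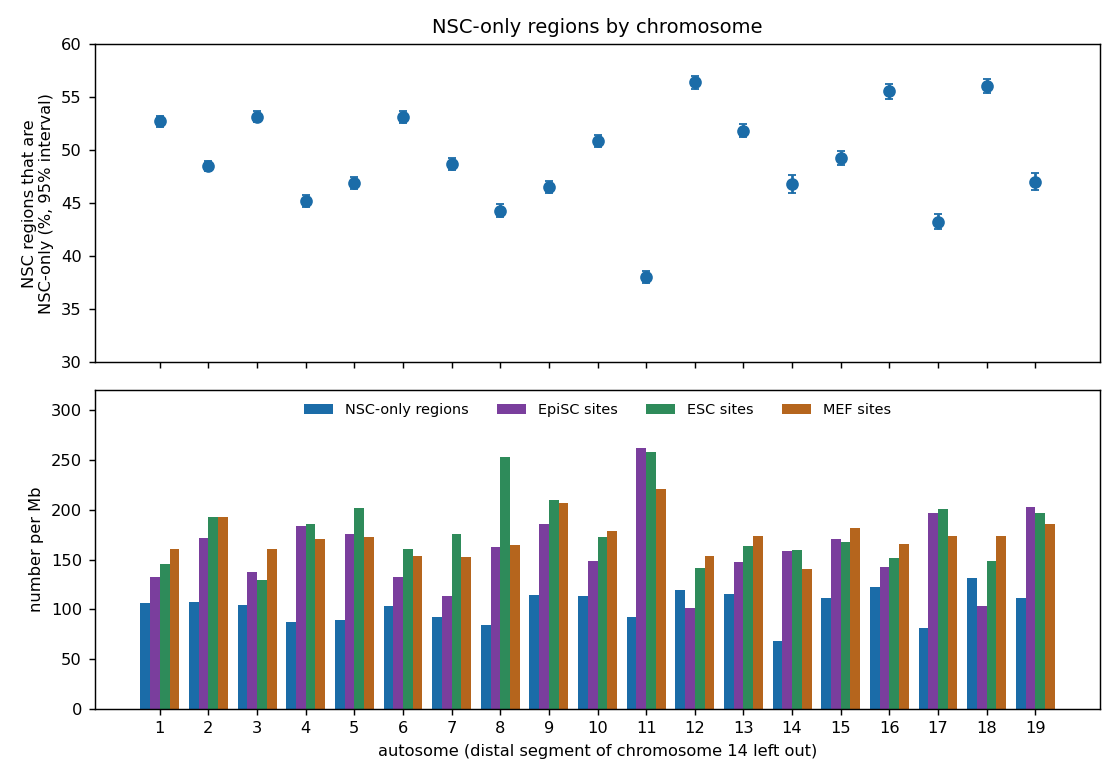
Top, percent of NSC regions that were NSC-only on each autosome (y axis from 30 to 60%), with exact 95% intervals. Bottom, NSC-only regions, EpiSC sites, ESC sites and MEF sites per Mb. Chromosome 11, with the most EpiSC and ESC sites per Mb, has the lowest share, 38.0%, and chromosome 12, with the fewest EpiSC sites, the highest, 56.4%.

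On the scale of 100 kb the NSC-only regions were unevenly spread. Of 23367 windows that held any region, 10256 (43.9%) had 10 or more NSC-only regions, 735 had none, and the median was 8 (quartiles 4 and 15). The share follows the window size, with 17.5% of 50-kb windows and 72.1% of 200-kb windows at 10 or more. The densest 10% of windows held 28.5% of NSC-only regions, against 24.8% of MEF-only, 32.5% of ESC-only and 26.4% of EpiSC-only regions in the densest 10% for each. The value for NSC-only regions thus lay within the range of the other single-list regions. The same share for all regions together is not given here. In the merged order along the chromosomes, the region after an NSC-only region was again NSC-only in 33.9% of cases, 1.497 times its share of all regions. A region of NSC and MEF followed 1.40 times as often as its share of all regions, a MEF-only region 1.09 times, an EpiSC-only region 0.83 times, an ESC-only region 0.56 times and a region of ESC and EpiSC 0.47 times. A neighbour that was itself single-list was also more frequent than its share for the other cell types, at 1.69 times for MEF-only, 1.87 times for ESC-only and 1.54 times for EpiSC-only regions.

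Windows rich in NSC-only regions were poor in ESC sites and not in MEF sites. Windows with 40 or more NSC-only regions, 203 in number, had a median of 4 ESC, 9 EpiSC and 21 MEF sites. Windows with 10 to 19 had a median of 17 ESC, 17 EpiSC and 20 MEF sites, and windows with 1 to 4 had 10 ESC, 12 EpiSC and 12 MEF sites. NSC sites shared with another list became more numerous throughout, from a median of 3 per window with 1 to 4 NSC-only regions to 19 with 40 or more. Across windows the Spearman correlation of the number of NSC-only regions was 0.50 with shared NSC sites, 0.41 with MEF sites, 0.03 with EpiSC sites and -0.07 with ESC sites. Windows are not replicates, and a site of another list can take a region out of the NSC-only class by overlapping it. The correlation with ESC does not show the decline, since the ESC median first rose and then fell as NSC-only regions became more numerous. Scores followed the crowding: the median score of NSC-only regions was 3.42 in windows with 1 to 4 of them, 3.67 with 10 to 19, 4.59 with 30 to 39 and 5.08 with 40 or more.

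**Figure D4:**
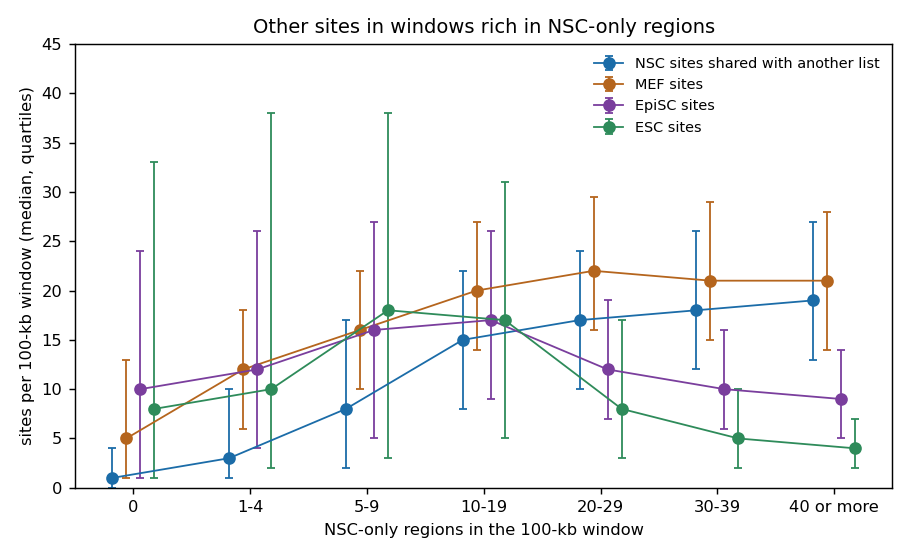
Median number of shared NSC, MEF, EpiSC and ESC sites per 100-kb window (y axis, bars from the lower to the upper quartile) by the number of NSC-only regions in the window (x axis). From 10 to 19 NSC-only regions up to 40 or more, the median of ESC sites goes from 17 to 4 and that of EpiSC sites from 17 to 9, while that of MEF sites stays at 20 to 22.

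The 10 windows with the most NSC-only regions were named by rule. The first was chr17:91100001-91200000, with 61 NSC-only regions among 88 NSC sites, beside 18 MEF, 17 EpiSC and 6 ESC sites. Its neighbour chr17:91200001-91300000 ranked next but one, with 59 NSC-only regions beside 19 MEF, 10 EpiSC and 7 ESC sites. Between them came chr9:74000001-74100000 with 60. The windows chr2:123200001-123300000, chr8:56000001-56100000 and chr9:27900001-28000000 had 57 each. The last 4 were chr6:103400001-103500000 and chr15:30100001-30200000 with 55 each, and chr4:96800001-96900000 and chr8:115400001-115500000 with 54 each. NSC-only regions covered between 19.3% and 29.7% of the bases of these windows. The window on chromosome 8 that starts at 56000001 had the highest median score, 10.2, and 57 of its 63 NSC sites were NSC-only. ESC had between 3 and 10 sites in each of the 10 windows, so none was empty in ESC.

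Windows with 10 or more NSC-only regions and no pluripotent site at all were counted next. Of the 10256 windows with 10 or more NSC-only regions, 513 had no ESC site, 139 no EpiSC site and 4 no MEF site. In 40 of them neither ESC nor EpiSC had a site, and these held 644 NSC-only regions among 748 NSC sites, beside 400 MEF sites. An NSC site in these 40 windows could be shared with MEF alone. Their high NSC-only share thus follows in part from how they were picked. The same counts over all windows are not given here, so their size and order cannot be called particular to NSC-only regions. The first of the 40 by number of NSC-only regions were chr16:83300001-83400000 with 31, chr10:71600001-71700000 with 28 and chr12:46800001-46900000 with 27, named after their values were seen. MEF had 11, 10 and 16 sites in these windows.

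Crowded windows joined into longer stretches, which were looked at after the windows had been seen. Windows with 20 or more NSC-only regions made up 15.6% of windows and held 39.8% of NSC-only regions. Being picked by that number, they had to hold more than their share. The share of all regions that lay in them is not given here. These windows formed 1395 stretches of adjoining windows, of which 747 were a single window and 63 reached 1 Mb or more. The longest, chr10:96100001-98400000, held 599 NSC-only regions among 1003 NSC sites, beside 605 MEF, 181 EpiSC and 152 ESC sites. In chr18:47600001-49800000 there were 698 NSC-only regions among 1047 NSC sites, beside 405 MEF, 184 EpiSC and 95 ESC sites. In chr12:38500001-40500000 there were 658 among 849 NSC sites, or 77.5%, beside 262 MEF, 92 EpiSC and 54 ESC sites. In chr2:137000001-139000000 there were 523 among 858 NSC sites, beside 597 MEF, 228 EpiSC and 60 ESC sites. In chr16:65900001-67800000 the share was 77.4%, with 287 MEF, 81 EpiSC and 32 ESC sites. The stretch chr19:14100001-16000000, of the same length, held 536 NSC-only regions among 878 NSC sites, or 61.0%. Beside them were 343 MEF, 283 EpiSC and 160 ESC sites. The density was 329 NSC-only regions per Mb in the stretch on chromosome 12 and 260 in that on chromosome 10, against 102 over all autosomes. Every window of a stretch had 20 or more NSC-only regions, so a density above 102 per Mb follows from how stretches were built. MEF thus had more sites in each of the stretches named here than EpiSC, and EpiSC more than ESC.

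At the finest scale, unbroken runs of NSC-only regions were traced, in which no site of another list came between them. Regions that stood alone made up 46.3% of all NSC-only regions, and 9.49% lay in 3809 runs of 5 or more. Runs of the other single-list regions are not given here, so these shares cannot be called particular to NSC-only regions. Longer runs had higher scores, with a median of 3.59 for regions standing alone, 4.19 in runs of 3 or 4, 4.57 in runs of 5 to 9 and 5.25 in the 213 runs of 10 or more. Widths rose along with them, from 278 to 307 bp.

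The longest run, chr7:95040389-95108213, held 34 NSC-only regions in 67825 bp, covering 26.7% of it, with a median score of 7.88 and scores from 2.47 to 23.2. A MEF-only region lay 924 bp before it and a region of NSC and MEF 858 bp after it. The second, chr8:56088385-56116189, held 25 in 27805 bp, covered 37.4% of it and had a median score of 9.69 and a highest score of 32.1. The third, chr5:9907092-9953326, held 24 with a median score of 9.86, the highest median of the 5 longest runs. The fourth, chr12:38699392-38728597, held 23 with a median score of 7.05, and it lay inside the stretch on chromosome 12 described above. The fifth, chr4:113301160-113616206, held 21 regions in 315047 bp, covered 1.52% of it and had a median score of 6.65. Its regions were unevenly placed, with 11 in the last 30 kb and 10 in the 285 kb before, among them the 4 isolated regions on chromosome 4 named above. The nearest region before it was an EpiSC-only one 173169 bp away. The median scores of all 5 runs were above the 3.88 of NSC-only regions as a whole.

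**Figure D5:**
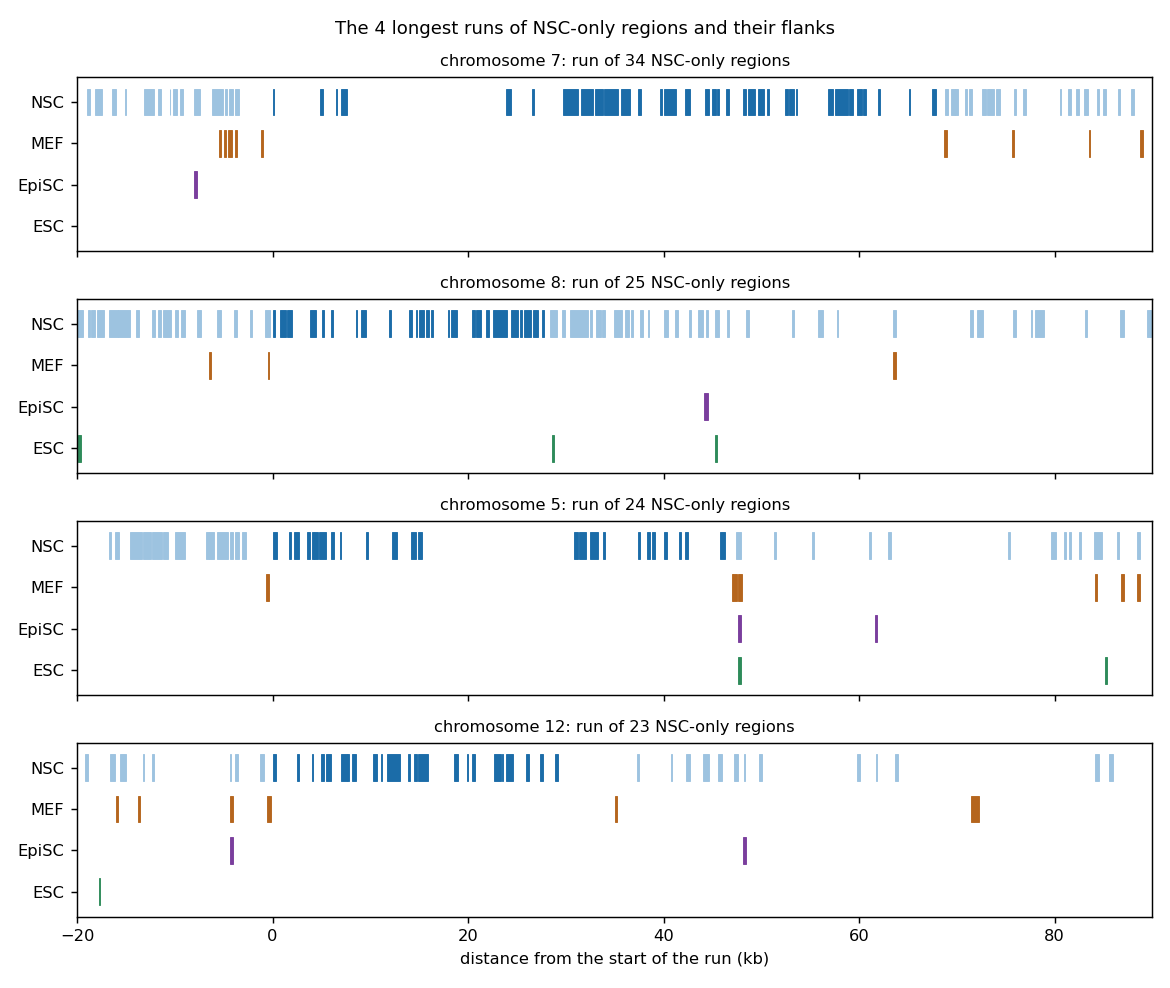
Sites of NSC, MEF, EpiSC and ESC as bars along the 4 longest runs and their flanks (x axis, kb from the start of the run), with NSC sites inside the run in dark blue and other NSC sites in pale blue. NSC sites go on beyond both ends of each run. By definition a run is bounded by regions that hold another list.

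NSC-only regions were set within a wider field of NSC sites. The nearest other NSC site lay at a median of 834 bp from an NSC-only site and 624 bp from a shared NSC site. Isolation was more frequent among NSC-only sites, of which 9117 (3.65%) had no NSC site within 10 kb, against 5370 (1.89%) of shared NSC sites. Between neighbouring NSC sites the median gap was 1805 bp where both were NSC-only, 1648 bp where 1 was and 1223 bp where both were shared. Gaps under 1 kb made up 35.3%, 36.7% and 45.1% of these.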

How the data were processed

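Per the labels' protocols, PCR-amplified FAIRE fragments were cut from agarose gels and run on the Illumina Genome Analyzer. The submitters' processing notes name CASAVA 1.8 and build mm9. Each list deposited by the authors holds positions, a score of no stated unit, and a display value within 1 of that score times 100, up to 1000. The word qeseq, an enrichment caller, is part of the names of the lists. The sources used here give neither its settings nor the aligner, the role of the control or any pooling of replicates. Scores were compared only within the NSC list. Depth is unknown.

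Starts were taken as 0-based, and coordinates are printed 1-based. Windows were assigned by region midpoint, and densities use the length up to the last site. Shares carry exact (Clopper-Pearson) 95% intervals for counting error alone. The named regions are the 10 highest-scoring, 5 widest and 5 farthest NSC-only regions, the 5 longest runs, the 10 fullest windows, and 3 regions on each side of the overlap rule, ties being broken by score. The regions and rules were chosen with earlier results of these data known. Genes and sequences were not used here, since the tables at hand are on another build, so the planned gene and motif results were not run.

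The tools were scipy 1.17.1, pandas 2.3.3, numpy 2.4.6 and matplotlib 3.10.9 under Python 3.11.15. Merging was tested on simulated lists, and bedtools 2.31.1 gave the same 1121520 regions and 262424 NSC-only regions with the segment included. Alternatives were stricter lists, equal lists, merging under 200 bp, overlap of 50%, a distance of 1 kb, NSC sites of at least the median score, the segment, and windows of 50 and 200 kb. Leaving out chromosomes 7, 12 and 18, or the MEF list, was added after the data were seen.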

Additional observations from a re-analysis of the deposited data

Results flagged for a closer look

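The rule left out 2 places in which NSC sites of no other list were also found. On the autosomes outside the segment, 49.3% of regions with an NSC site were NSC-only. Finding some in both places was therefore no test. The segment of distal chromosome 14 held 12776 regions of NSC alone among 17955 regions with an NSC site (71.2%, exact 95% interval 70.5 to 71.8), or 365 per Mb, with a median score of 6.26 and a median width of 357 bp. Next to its edges the bins of 1 Mb held 55 such regions before it, in chr14:85000001-86000000, and 99 after it, in chr14:121000001-122000000. The first and last bins inside held 202 and 271. The X chromosome, which is not an autosome, held 3076 regions of NSC alone among 4156 with an NSC site (74.0%, 72.7 to 75.3), or 18.5 per Mb, with a median score of 3.35. The EpiSC list had no site on the X chromosome.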

How the results depend on the processing

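No paired analysis was possible because a single list stood for each group, and no replicate could be left out for that reason. Intervals of shares and medians cover counting alone and are narrow. Under the alternatives, 37 values moved and 10 did not. A share or median was said to move when it left the 95% counting interval of the main value. A count was said to move when it changed more than 1.5 times. The counts of 50-kb and 200-kb windows are among the 10. Their shares of windows, 17.5% and 72.1% against 43.9% at 100 kb, did follow the window size. Counts of regions stayed within 1.5 times of 249648 except with the 50% highest scores of each list (154979), at 1 kb or more from other lists (102614) and with NSC sites of at least the median score (122234). The share of NSC regions, 49.3%, was 60.7% with the 50% highest scores, 50.4% with lists of equal length, 42.3% with merging under 200 bp, 52.8% of NSC sites with an overlap of 50%, 20.3% at 1 kb or more, 48.2% from the median NSC score up, 50.02% with the segment of chromosome 14, 48.5% without chromosomes 7, 12 and 18, and 63.8% without the MEF list.

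In the same order, leaving out chromosomes aside, the median width was 300, 276, 288, 289, 278, 279, 286 and 295 bp. The median score was 5.96, 4.96, 3.93, 3.86, 4.05, 6.01, 3.96 and 4.02. The median distance to another list was 1464, 825, 1020, 607, 2047, 801, 772 and 1472 bp, and 732 bp without chromosomes 7, 12 and 18. Fewer sites, a stricter rule or fewer lists make most of these changes by construction, and the cause of the others was not tested. Leaving out the 3 chromosomes and the MEF list was chosen after seeing the data.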
